A study of Mus musculus with 6 samples.

Results

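The endothelial and blood-brain barrier genes of the mouse spinal cord were followed as a set of 32 genes that mark vessel cells or build the barrier between blood and nervous tissue. Members were taken by name, and every probe set annotated to one of them was used. This gave 51 of the 45101 probe sets on the array, of which 48 carried 1 gene symbol and 3 carried a second symbol besides the member. A probe set is a group of short oligonucleotides matched to 1 transcript or to a stretch shared by several. The series compared the adult, untreated spinal cord of Nogo-A knockout mice with that of wild type mice. The knockout mice were male Nogo-A KO C57Bl/6 animals aged 4 months (3 arrays), and the wild type mice were male C57Bl/6 animals of the same age (3 arrays), with 1 Affymetrix Mouse 430 2.0 array per animal. All 6 animals were naive, RNA came from the spinal cord without separation of cell types, and how the knockout allele was made is not given in the sources used here.

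Endothelial cells line all blood vessels, and in brain and spinal cord they are sealed to each other by tight junctions. Because little can pass between such cells, nutrients enter through carriers in their membranes and many drugs and lipids are pumped back into the blood by ATP-driven efflux pumps. The barrier state is kept up by Wnt and beta-catenin signalling and by contact with pericytes and astrocyte endfeet. Nogo-A, the longest product of the gene Rtn4, is a neurite growth inhibitor found in myelin and in certain neurons, and Nogo-B, a shorter product of the same gene, is known from endothelial cells.

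Of the 32 genes, 30 had a tested probe set with a symbol of its own. A probe set was tested if 2 or more of the 3 animals of either genotype had it at or above the median of their own array, and each gene is given at its lead probe set, the tested one with the highest mean intensity. Tie1, a receptor tyrosine kinase of endothelial cells, stayed under the array median on all 6 arrays, with 138, 85.1 and 74.3 on knockout arrays 1 to 3, against 27, 44.7 and 119.6 on wild type arrays 1 to 3. Ly6c1, a surface marker of brain endothelium, had no probe set apart from one shared with its near copy Ly6c2. The Cdh5 and Erg probe sets were also dim. Lead values of Cdh5 spanned 138 to 239.9 and those of Erg 79.8 to 174, close to the array medians of 144 to 196. Icam2 and Lef1 each read under the median on knockout array 1, and the other 26 lead probe sets, among them Cldn5, Slco1a4 and Itm2a of brain endothelium, lay above it on all 6 arrays. In bulk tissue, fewer endothelial cells and less RNA per cell cannot be told apart.

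The tissue and the genotype were checked first. The Rtn4 probe set lost in the knockout read 78.2, 9.17 and 5.08 on the knockout arrays, against 3560.2, 2790.4 and 2802 on the wild type arrays (limma, Benjamini-Hochberg adjusted p = 0.0151), and the other 4 Rtn4 probe sets were brighter on every knockout array than on every wild type array, with an adjusted p of 0.538 to 0.591 each in limma. Genes of spinal cord cells such as Mbp of myelin, Snap25 of synapses and Gfap of astrocytes were bright on all arrays, while Chat, the marker enzyme of motor neurons, stayed under the array median throughout. The arrays differed in their dim signals, with a 5th percentile of 4.57 to 4.92 on knockout arrays and 5.26, 10.5 and 19.98 on wild type arrays 1 to 3. Wild type array 3 had the lowest mean correlation with the other 5 arrays, 0.93 against 0.952 to 0.961.

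No endothelial or barrier gene was called as different between the genotypes after adjustment over all tested probe sets. At an adjusted p under 0.05 in limma, 0 of the 30 genes were called in either direction, where the background was 0% of the 23525 tested probe sets higher and 0.00425% lower in knockout. At an unadjusted p under 0.05, 1 gene (Slc7a5) was on the higher side, or 3.33%, where 4.31% of all tested probe sets were. On the lower side stood 4 genes (Pecam1, Slc2a1, Abcc4 and Lef1), or 13.3%, where 3.98% of all tested probe sets were. The counts moved with single arrays. Members at an unadjusted p under 0.05 numbered 0, 3 and 1 without knockout array 1, 2 or 3, against 10, 1 and 2 without wild type array 1, 2 or 3. Of 29 or 30 members tested, the higher and lower counts were 0 and 0, 1 and 2, and 0 and 1 without knockout array 1, 2 or 3. For wild type array 1, 2 or 3 left out, these counts were 3 and 7, 0 and 1, and 1 and 1. Over all tested probe sets the higher and lower shares were 2.15% and 2.59%, 3.71% and 3.16%, and 1.70% and 2.40% without knockout array 1, 2 or 3. Without wild type array 1, 2 or 3 they were 6.81% and 7.42%, 3.27% and 2.48%, and 6.54% and 5.32%. Dividing each array by its median moved the midpoint of all tested probe sets to a log2 change of 0.23. Under that scaling 2 members (Slc7a5 and Ramp2) were on the higher side and 0 on the lower side, where 11.9% of all tested probe sets were higher and 1.13% lower. Over all tested probe sets this was 2805 higher and 265 lower, against 1013 and 937 with the deposited scaling. The series' own thresholds, a 1-factor test at 0.05 with a fold of 1.2, called 0 members in either direction, where 2.24% of tested probe sets were called higher and 2.59% lower in knockout. That test was run here on the deposited scaling and the array median filter. The series' design text used a per-chip scaling and a filter on present calls, so its own outcome may differ.

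The median log2 change of the 30 genes, knockout minus wild type, was -0.072, beside 0.0079 for all tested probe sets, and single genes ranged from -0.84 in Lef1 to 0.40 in Slc7a5. The log2 change was above 0 in 12 of 30 genes, or 40.0%, against 51.4% of all tested probe sets. Erg was among the 12 and in the median, though it passed the filter only through knockout arrays 2 and 3. The 3 knockout values lay wholly above the 3 wild type values in 2 genes, Slc7a5 and Ramp2, where 7.85% of tested probe sets did, and wholly below in 3 genes, Pecam1, Slc2a1 and Abcc4, where 6.62% did. An exact permutation test of 3 arrays against 3 cannot give a p under 0.1, so the limma fit across all probe sets was used. The median standard error of the members was 0.17 on the log2 scale, and it ran from 0.086 in Bsg to 0.41 in Erg.

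**Figure D1:**
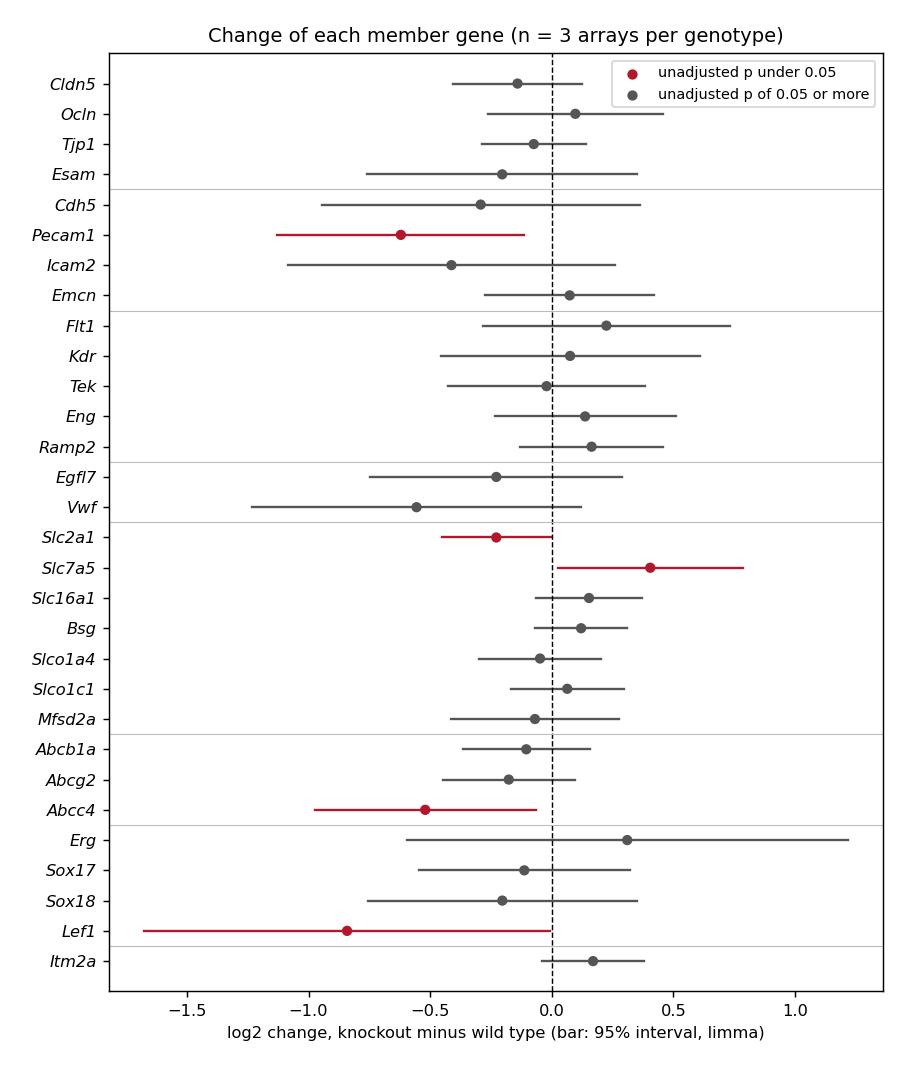
Log2 change of each of the 30 tested member genes, knockout minus wild type, at its lead probe set, with 95% intervals from limma (horizontal axis) and genes grouped by role (vertical axis). The intervals of Pecam1, Slc2a1, Abcc4, Lef1 and Slc7a5 leave out 0 before adjustment, and those of the other 25 genes include it. Erg is drawn although it passed the filter only through knockout arrays.

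Promoters are shown because 4 members are transcription factors whose families have known DNA letters. Erg belongs to the ETS family, Sox17 and Sox18 to the SOX family, and Lef1 to the TCF/LEF family that carries Wnt signals. RefSeq windows on GRCm38.p6 were found for 22 of the 32 genes, and the 250 bases before each listed start were searched on both strands for CAGGAA (ETS), ACAATG (SOX) and CTTTGA (TCF/LEF), and no 2 matches overlap in the windows printed here. The ETS letters were present at 1 start or more in 8 of 22 genes, or 36.4%, against 28.3% of all 27025 genes in the table. The SOX letters were present in 4 of 22 genes, or 18.2%, against 12.2%, and the TCF/LEF letters also in 4 of 22, against 15.8%. Members had more listed starts per gene than the table as a whole, so the shares were also taken per window. The ETS letters were in 10 of 34 member windows, or 29.4%, against 25.7% of all 32851 windows, and the SOX letters in 4, or 11.8%, against 10.7%. The TCF/LEF letters were in 4 of 34, or 11.8%, against 13.8%, so the order of the shares turned round. The 5 windows below cover a secreted vessel gene (Egfl7, upstream of its first listed start), an endothelial receptor (Tek), a Wnt factor (Lef1, the last of its 4 listed starts), an efflux pump (Abcb1a) and the glucose carrier (Slc2a1). Each is printed 5′ to 3′ on the strand of its gene, and capitals mark the motif letters.
Egfl7 (chr2:26580833-26581082, plus strand): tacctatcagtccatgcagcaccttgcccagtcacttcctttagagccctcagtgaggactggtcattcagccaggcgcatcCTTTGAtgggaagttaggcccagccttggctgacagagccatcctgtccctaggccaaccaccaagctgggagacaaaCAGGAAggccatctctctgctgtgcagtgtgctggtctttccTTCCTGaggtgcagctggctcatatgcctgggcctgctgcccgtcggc
Tek (chr4:94739039-94739288, plus strand): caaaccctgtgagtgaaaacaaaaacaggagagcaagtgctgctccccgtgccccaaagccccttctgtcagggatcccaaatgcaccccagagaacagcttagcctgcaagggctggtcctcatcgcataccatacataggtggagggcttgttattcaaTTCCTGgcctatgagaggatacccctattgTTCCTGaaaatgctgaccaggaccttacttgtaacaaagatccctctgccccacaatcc
Lef1 (chr3:131156044-131156293, plus strand): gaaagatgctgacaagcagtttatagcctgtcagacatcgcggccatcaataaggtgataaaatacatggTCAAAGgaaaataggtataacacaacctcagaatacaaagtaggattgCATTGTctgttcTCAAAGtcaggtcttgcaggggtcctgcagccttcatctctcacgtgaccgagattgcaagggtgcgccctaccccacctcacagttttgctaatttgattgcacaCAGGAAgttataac
Abcb1a (chr5:8566841-8567090, plus strand): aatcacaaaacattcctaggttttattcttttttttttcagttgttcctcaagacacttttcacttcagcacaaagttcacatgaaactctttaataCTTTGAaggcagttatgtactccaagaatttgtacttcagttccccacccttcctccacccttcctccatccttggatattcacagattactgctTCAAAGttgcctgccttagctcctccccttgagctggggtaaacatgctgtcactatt
Slc2a1 (chr4:119108495-119108744, plus strand): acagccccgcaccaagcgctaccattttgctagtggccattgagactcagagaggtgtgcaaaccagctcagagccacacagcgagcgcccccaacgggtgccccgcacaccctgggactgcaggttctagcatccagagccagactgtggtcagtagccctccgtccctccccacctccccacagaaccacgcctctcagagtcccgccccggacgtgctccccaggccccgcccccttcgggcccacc
The Egfl7 window held the ETS letters at 2 places and the TCF/LEF letters at 1, and the Tek window held the ETS letters at 2. In the Lef1 window stood 1 ETS, 1 SOX and 2 TCF/LEF matches, while the other 3 listed Lef1 starts had 0 matches to any of the 3 motifs. The Abcb1a window held 2 TCF/LEF matches. No letters of the 3 motifs were in the Slc2a1 window. A match is a description of letters and not a site.

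None of the 4 tight junction genes was called, and their values overlapped between the genotypes. Cldn5, the main claudin of brain endothelium, which closes the gap between cells to small molecules, read 1717, 1856 and 1948 on knockout arrays 1 to 3, against 1849, 1897 and 2371 on wild type arrays 1 to 3. Wild type array 3 was the highest and the genotypes overlapped. Its mean was 1840.1 ± 116 in knockout and 2039 ± 289 in wild type (SD, n = 3 each), a fold of 0.907 with a 95% interval of 0.754 to 1.09 (limma adjusted p = 0.760). Ocln, or occludin, another membrane protein of the junction, read 396, 387 and 361 in knockout, against 351, 345 and 373 in wild type, with a log2 change of 0.10 at its lead probe set and -0.25 at its second one. Tjp1, the scaffold ZO-1 that ties claudins to actin and is also made by epithelia and glia, read 3116, 3389.7 and 3086 in knockout, against 3478, 3523 and 3104 in wild type, and its fold of 0.95 had an interval of 0.819 to 1.1. The genotypes overlapped in both genes. Esam, an adhesion molecule of endothelial tight junctions, varied more, with 649, 678 and 838 in knockout, against 545, 813 and 1272 in wild type. The lowest and the highest value were both from wild type animals, so the log2 change of -0.20 (interval -0.76 to 0.35) lay within the spread of 1 genotype, and without wild type array 3 it was 0.11.

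Among adhesion genes Pecam1 stood out before adjustment. Pecam1, which encodes CD31, the classic surface marker of endothelium and platelets, read 254, 311 and 336 on knockout arrays 1 to 3, against 371, 401 and 647 on wild type arrays 1 to 3. Every knockout value lay under every wild type value, and wild type array 3 was well above the rest. The mean was 300.2 ± 41.6 in knockout and 473 ± 151 in wild type (SD, n = 3 each), a log2 change of -0.62 (standard error 0.23). The unadjusted limma p was 0.0211 and the adjusted p 0.594. The change was -0.37 without wild type array 3 (limma unadjusted p = 0.0831) and -0.51 without knockout array 1 (unadjusted p = 0.0806). Icam2, a ligand for leukocyte integrins on resting endothelium, read 128, 155 and 196 in knockout, against 178, 194 and 265 in wild type, with overlap and a log2 change of -0.41 (interval -1.09 to 0.26). Cdh5, VE-cadherin of the adherens junction, read 138, 192 and 158 in knockout, against 168, 191 and 239.9 in wild type, and its other probe set was under the median on all arrays. Cdh5 had a log2 change of -0.29, with an interval of -0.95 to 0.36. Emcn, the sialomucin endomucin of veins and capillaries, had a change on the other side of 0, with 624, 552 and 609 in knockout, against 545, 489 and 677 in wild type, a log2 change of 0.074 (interval -0.27 to 0.42). Wild type array 3 was the highest of 6 in each of these 4 genes.

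**Figure D2:**
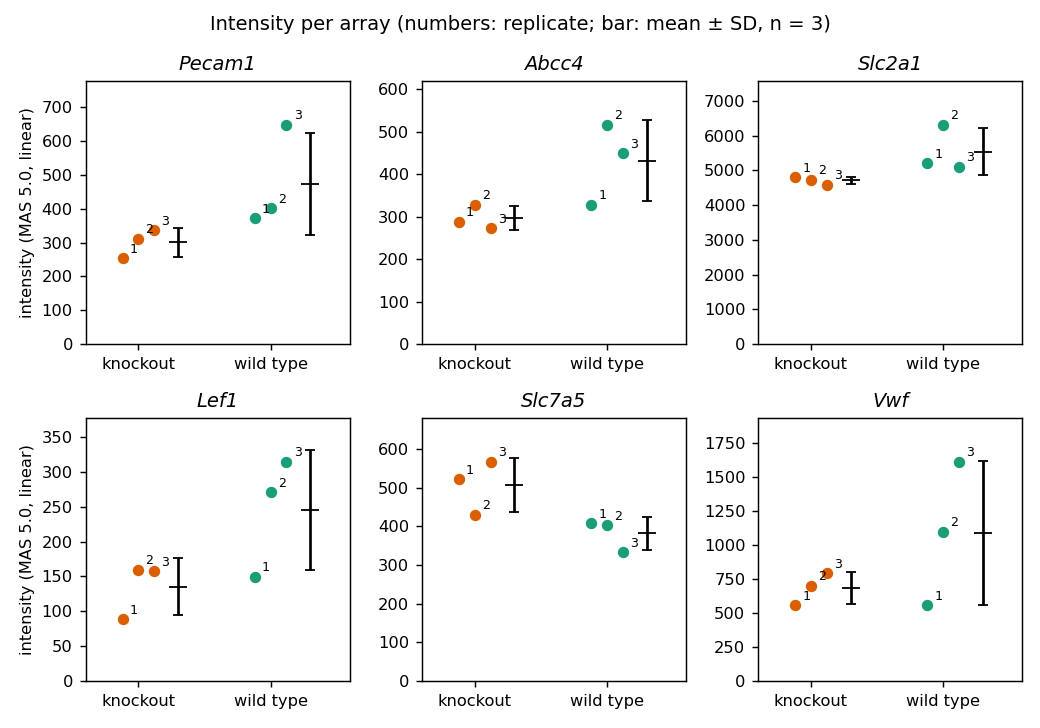
Intensities (vertical axis, linear MAS 5.0 units) of 6 member genes on each array, with the replicate number beside each point and the mean ± SD of 3 arrays as a bar. The genotypes do not overlap in Pecam1, Abcc4, Slc2a1 and Slc7a5, overlap in Lef1 and Vwf, and Pecam1, Lef1 and Vwf are highest on wild type array 3.

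None of the 5 tested receptors of endothelial growth signals was called. Of these, 4 had a log2 change above 0, and the changes ran from -0.022 to 0.22. Kdr, the main VEGF receptor, read 234, 284 and 247 in knockout, against 207, 216 and 314 in wild type (log2 change 0.075, interval -0.46 to 0.61), and the wild type range took in all knockout values. Flt1, a VEGF receptor that also exists as a soluble decoy, had 4 tested probe sets. Its lead probe set read 451, 438 and 708 in knockout, against 353, 429 and 578 in wild type, with knockout array 3 the highest. The log2 changes of the 4 were 0.22, -0.22, 0.38 and 0.24 from the lead one on, so 1 of them lay under 0, and the smallest unadjusted limma p was 0.204. Without the array of each genotype that had the most skeletal muscle signal, the lead change of Flt1 was 0.54 (limma unadjusted p = 0.0416). Tek, the angiopoietin receptor Tie2, read 408, 416 and 617 in knockout, against 483, 466 and 486 in wild type, and the wild type animals lay between the lowest and the highest knockout animal. Its log2 change was -0.022, with an interval of -0.43 to 0.38.

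The 2 probe sets of Eng had changes on opposite sides of 0. Eng encodes endoglin, a co-receptor for ligands of the TGF-beta family, and its lead probe set read 549.5, 423 and 581 in knockout, against 439, 513 and 451 in wild type, a log2 change of 0.14 (interval -0.23 to 0.51). The second probe set read 207, 166 and 177 in knockout, against 189, 296 and 491 in wild type, a log2 change of -0.72 with an unadjusted limma p of 0.0486 and an adjusted p of 0.600. Wild type array 3 was highest at the second probe set and not at the lead one. Ramp2, a partner of the adrenomedullin receptor in vessels, read 813, 789 and 785 in knockout, against 622, 779.9 and 738 in wild type, so all knockout values lay above the wild type values by a narrow margin (log2 change 0.16, limma adjusted p = 0.747). The other 2 probe sets listed for Ramp2 carry a second symbol, Vps25, and are not assigned here. Their log2 changes were -0.10 and -0.11, on the other side of 0.

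**Figure D3:**
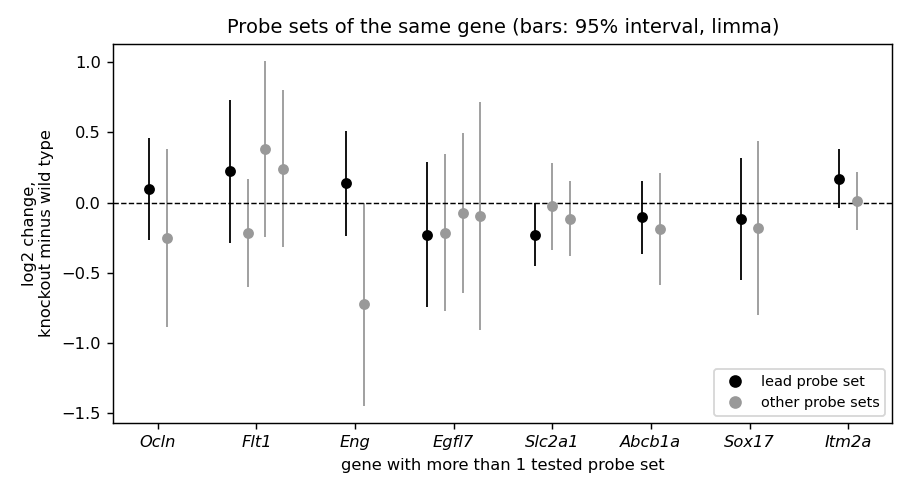
Log2 change, knockout minus wild type (vertical axis), of every tested probe set of the 8 member genes that have more than 1, with 95% intervals from limma and the lead probe set in black. The probe sets of Ocln, Flt1 and Eng lie on both sides of 0, and those of Egfl7, Slc2a1, Abcb1a and Sox17 all lie under it.

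The secreted vessel proteins spread widely among wild type animals. Vwf, von Willebrand factor of endothelium, which helps platelets adhere, read 558, 699 and 793 on knockout arrays 1 to 3, against 556, 1098 and 1613 on wild type arrays 1 to 3. Wild type array 1 was the lowest of all 6 and wild type arrays 2 and 3 the highest, so the wild type values alone spanned 2.90-fold, against 1.42-fold in knockout. The log2 change was -0.56 (standard error 0.31, limma adjusted p = 0.650), and it was -0.21 without wild type array 3 and -0.98 without wild type array 1. The unadjusted limma p was 0.000771 without wild type array 1. Egfl7, a vessel matrix protein that guides sprouting, was measured by 4 probe sets, and wild type array 3 was the highest at all 4. Its lead probe set read 789, 516 and 746 in knockout, against 554, 822 and 1070.2 in wild type. The 4 log2 changes ran from -0.23 to -0.073, and without wild type array 3 the lead change was -0.0065.

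Of the 7 carriers and carrier partners that feed the nervous tissue, 4 had a change above 0 and 3 below, and none was called after adjustment. Slc2a1 encodes GLUT1, which brings glucose across the barrier and is also made by glia. Its lead probe set read 4804, 4734 and 4594 in knockout, against 5210.4, 6309.7 and 5108 in wild type, with no overlap and wild type array 2 the highest. The mean was 4711 ± 107 in knockout and 5543 ± 666 in wild type (SD, n = 3 each), a fold of 0.854 (95% interval 0.731 to 0.996, limma unadjusted p = 0.0456, adjusted p = 0.599). At the other 2 probe sets of Slc2a1 the genotypes overlapped, with log2 changes of -0.025 and -0.11. The lead call was lost without wild type array 2 (unadjusted p = 0.208) or any knockout array (unadjusted p = 0.0852 to 0.118), and with the mean of its 3 probe sets (unadjusted p = 0.253). With each array divided by its median, the scaling that moved the midpoint of all probe sets upward, the unadjusted limma p of the lead probe set was 0.969.

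Slc7a5 was the member with the largest change above 0. It encodes LAT1, the carrier of large neutral amino acids, L-DOPA and thyroid hormone, and read 522, 429.7 and 567 on knockout arrays 1 to 3, against 408, 403 and 333 on wild type arrays 1 to 3. All knockout values lay above the wild type values, and wild type array 3, the highest array for many vessel genes, was here the lowest. The mean was 506 ± 70.1 in knockout and 381 ± 41.7 in wild type (SD, n = 3 each), a fold of 1.32 (95% interval 1.02 to 1.72), and its limma p was 0.0392 before and 0.598 after adjustment. The unadjusted call was lost without wild type array 2 or 3 or knockout array 1 or 3, where p was 0.0514, 0.0942, 0.107 and 0.149.

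The genotypes overlapped in all of the other 5 carriers and partners, and none had an unadjusted p under 0.05. Slc16a1, the lactate carrier MCT1 of endothelium and oligodendrocytes, read 4587, 4720.5 and 4217 in knockout, against 4452, 3795 and 3933 in wild type. Bsg, or basigin, which brings such carriers to the membrane and is made by many cell types, read 10477, 11020.2 and 11106 in knockout, against 9560.3, 9631 and 10839 in wild type. Their folds were 1.11 (interval 0.957 to 1.29) and 1.09 (interval 0.953 to 1.24). Slco1c1, which carries thyroxine and is made by rodent brain endothelium and astrocytes, had 1623, 1668 and 1562 in knockout, against 1661, 1468 and 1519.6 in wild type. Its fold of 1.04 had an interval of 0.89 to 1.23. Slco1a4, an organic anion carrier of rodent brain capillaries, had 2433, 2517 and 2121 in knockout, against 2184, 2647 and 2485 in wild type (fold 0.967, interval 0.814 to 1.15). Mfsd2a, which imports lysophosphatidylcholine with docosahexaenoic acid and holds back transcytosis, had 921, 818 and 925 in knockout, against 818, 1178 and 836 in wild type. Wild type array 2 was its highest array, and the fold was 0.953 (interval 0.751 to 1.21).

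The 3 efflux pumps all had changes below 0. Of these, 1 had an unadjusted p under 0.05, where 3.98% of all tested probe sets were lower at that p. Abcc4, or MRP4, which exports organic anions and cyclic nucleotides, read 288, 328 and 273 on knockout arrays 1 to 3, against 328, 517 and 450.1 on wild type arrays 1 to 3. The highest knockout value and the lowest wild type value were nearly level, and wild type arrays 2 and 3 were set apart above them. The mean was 297 ± 28.3 in knockout and 432 ± 95.4 in wild type (SD, n = 3 each), a log2 change of -0.52 with an interval of -0.97 to -0.066 (limma unadjusted p = 0.0283, adjusted p = 0.594). The unadjusted p was 0.132 without wild type array 2, 0.0526 without wild type array 3, 0.0689 without knockout array 1 and 0.0842 without knockout array 3. Abcb1a, P-glycoprotein, the drug pump of the barrier in rodents, read 1098, 1112 and 1049.5 in knockout, against 1067, 1156 and 1293 in wild type at its lead probe set. Its 2 probe sets had log2 changes of -0.10 and -0.19, and the near copy Abcb1b may add to such signals. Abcg2, the pump BCRP, read 1001, 1016 and 881 in knockout, against 1118, 1157 and 999 in wild type, a fold of 0.885 with an interval of 0.734 to 1.07.

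Transcription factors were led by Lef1, which acts with beta-catenin on Wnt target genes. It read 88.2, 159 and 158 on knockout arrays 1 to 3, against 149.5, 271 and 315 on wild type arrays 1 to 3. Knockout array 1 was the lowest and under its array median, wild type arrays 2 and 3 were the highest, and wild type array 1 lay within the knockout range. The mean was 135 ± 40.6 in knockout and 245 ± 85.6 in wild type (SD, n = 3 each), a log2 change of -0.84 with a standard error of 0.38 (limma unadjusted p = 0.0482, adjusted p = 0.600). Its unadjusted call was lost without any single array other than wild type array 1 (unadjusted p = 0.0511 to 0.176) and after quantile normalization (unadjusted p = 0.0825), and its second probe set was under the median on all arrays. Sox18, a factor of vessel development, read 330.1, 356 and 381 in knockout, against 315, 341 and 637 in wild type, where only wild type array 3 stood apart, and the log2 change of -0.20 was 0.12 without that array. Sox17, a factor of arterial identity, read 388, 421 and 514 in knockout, against 377, 593 and 475 in wild type, with log2 changes of -0.11 and -0.18 at its 2 probe sets. Erg, the ETS factor that maintains endothelial identity, read 122, 154 and 174 in knockout, against 129, 166 and 79.8 in wild type. All 3 wild type values lay under their array medians, so no fold is given.

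Surface markers of brain endothelium completed the set. Itm2a, a membrane protein enriched in these vessels, read 8299, 8329.6 and 7992 in knockout, against 8034, 7409 and 6524 in wild type at its lead probe set, a log2 change of 0.17 (interval -0.04 to 0.38). Wild type array 3 was the lowest there and the highest at the second probe set, which had 4308, 4159 and 4284 in knockout, against 4090.0, 3937 and 4634 in wild type. The probe set shared by Ly6c1 and Ly6c2 cannot be assigned to either gene, and read 2730.2, 2862 and 2861 in knockout, against 2699, 3805 and 4223 in wild type. Wild type arrays 2 and 3 stood above the other 4, and the log2 change was -0.32 with an unadjusted limma p of 0.0525.

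Many members were highest on a single wild type array. Wild type array 3 was the highest of the 6 arrays in 12 of 30 genes and wild type array 2 in 7, while wild type array 1 was the highest in 0. Over all tested probe sets wild type array 3 was the highest in 26.6%, wild type array 2 in 18% and wild type array 1 in 14.7%. The split between transport genes and the rest was drawn after these values were seen and has no test. Of the 20 members outside transport, 11 were highest on wild type array 3, against 1 of the 10 carriers and pumps. The median of the 20, as log2 deviation from each gene's mean over the arrays, was -0.15, -0.10 and 0.042 on knockout arrays 1 to 3 and -0.12, 0.073 and 0.28 on wild type arrays 1 to 3. That of the 10 was 0.014, -0.016 and -0.06 in knockout and -0.089, 0.092 and -0.017 in wild type. Against the mean of the other 5 arrays, the signal on wild type array 3 was above 1-fold in 15 of the 20 and below it in 5, with a median of 1.25 and a range of 0.537 in Erg to 2.18 in Vwf. Itm2a was at 0.814-fold and Eng at 0.9-fold, on the low side with Erg. Among the 10 it was above 1-fold in 4 and below in 6, with a median of 0.981 and a range of 0.715 in Slc7a5 to 1.297 in Abcc4. Without wild type array 3 the median change of the 30 genes was -0.0081. In 25 of 30 genes the values spanned a wider range, as highest over lowest, in wild type than in knockout, where 67.9% of all tested probe sets did.

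**Figure D4:**
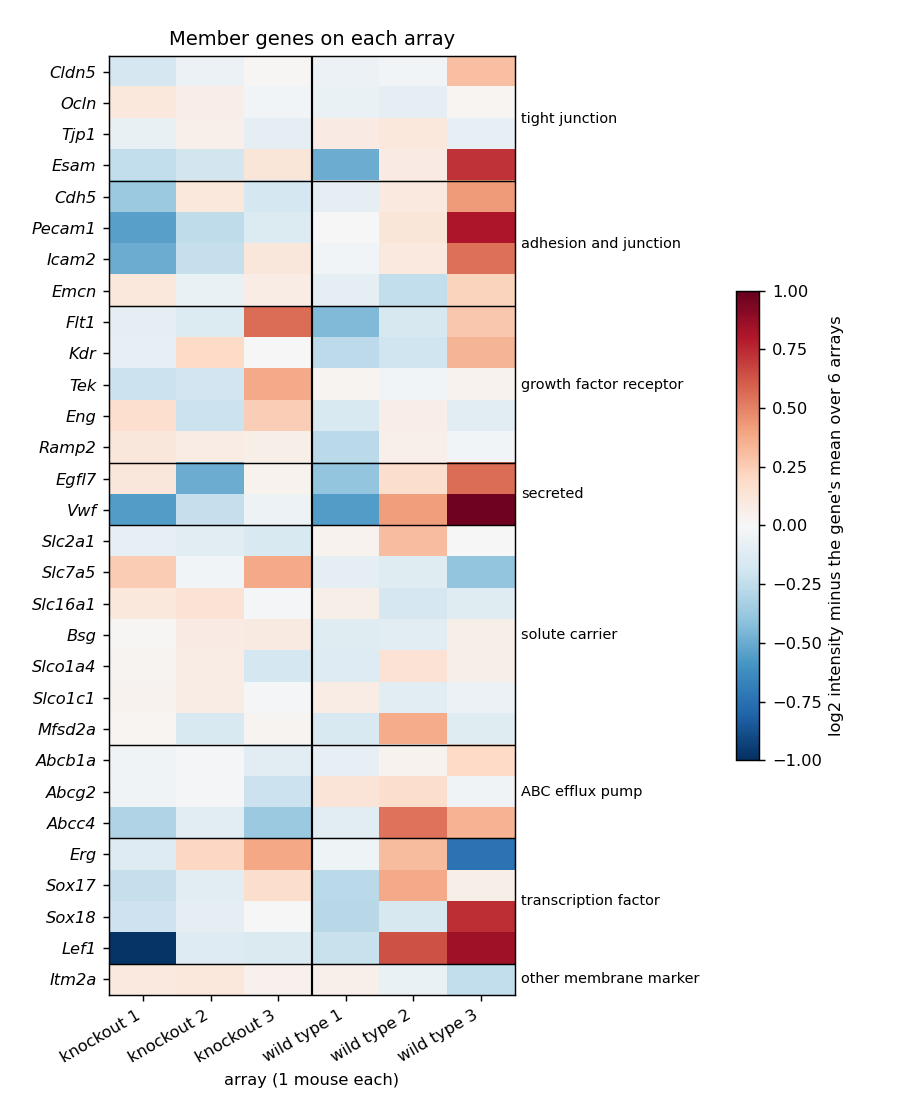
Log2 intensity of the 30 tested member genes on each array (columns, knockout left of wild type), as deviation from the gene's mean over the 6 arrays (colour), with genes grouped by role (rows). Pecam1, Vwf, Esam, Sox18 and Lef1 are darkest red on wild type array 3, while most carriers stay pale on all arrays.

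**Figure D5:**
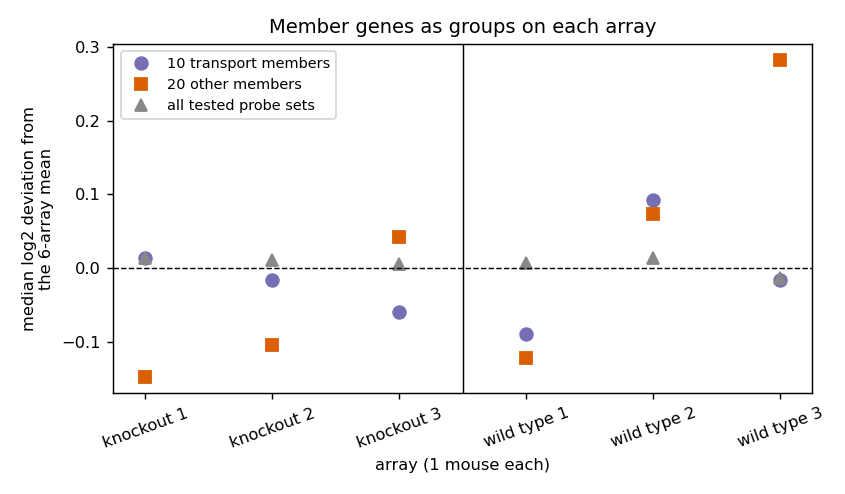
Median log2 deviation from the mean of the 6 arrays (vertical axis) on each array, for the 10 transport members, the 20 other members and all tested probe sets. The 20 other members stand at 0.28 on wild type array 3, while the 10 transport members stand at -0.017 there.

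Markers of other cells were set beside this pattern. Skeletal muscle genes, 6 of 6 with a probe set, had a summed intensity of 1696, 12242 and 1452 on knockout arrays 1 to 3 and 1026, 1975 and 5733 on wild type arrays 1 to 3. Muscle signal was highest on knockout array 2, where the median of the 20 members was -0.10. It was next highest on wild type array 3, where that median was 0.28. Mural cell genes (11 of 11) summed to 12712 to 13574 in knockout and 12339.5 to 14228 in wild type, and markers of fenestrated and lymphatic vessels (5 of 5) to 782 to 1021 in knockout and 831 to 1035 in wild type. Red blood cell genes had 3 of 5 with a probe set, summing to 718 to 779 in knockout and 486 to 736 in wild type. In that list Hba-a1, a globin gene picked here after its values were seen, stayed under the array median, with 5.71, 37.8 and 22.9 in knockout, against 19.8, 59.1 and 61.2 in wild type, and every marker with a probe set read above 0. Slc4a1 and Alas2 lay the other way, with means of 228 and 506 in knockout, against 69.8 and 472 in wild type. The beta globin genes had no probe set with a symbol of their own, so the amount of blood RNA is not settled by Hba-a1. Genes of activated endothelium, 9 of 9 with a probe set, summed to 3339, 3656 and 3444 on knockout arrays 1 to 3 and 2849.8, 4421 and 6760.2 on wild type arrays 1 to 3. Of these 9 genes, tested or not, 7 were highest on wild type array 3 and 2 on wild type array 2. No share over all probe sets, tested or not, was taken beside this count. Wild type array 3 also had the highest 5th percentile, 19.98, so dim genes may peak there whatever their kind. Among the 5 that were tested, 5 were highest on wild type array 3, against 26.6% of all tested probe sets. The 5 include Il1r1 and Ch25h, which passed the filter only through wild type arrays 2 and 3, where they were high. Their place in the count was therefore favoured by the filter, and the untested genes were dim. Of the list, Lcn2, an acute phase protein, read 506, 541 and 501 in knockout, against 203, 723 and 1702 in wild type, and Vcam1, a leukocyte adhesion molecule, read 655, 593 and 489.6 in knockout, against 646, 682 and 790.2 in wild type. The part of activation, muscle or dim signals in the vessel gene values of wild type array 3 was not tested.

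Other genes of the same pathways were taken from lists and read at their lead probe sets. Over all tested probe sets, 4.31% were higher and 3.98% lower in knockout at an unadjusted p under 0.05. In 7.85% every knockout value lay above every wild type value, and in 6.62% every one lay below. Of 16 tested ligands, partners and receptors of VEGF, angiopoietin and TGF-beta signalling, 5 had a change above 0 and 11 below, and 0 had an unadjusted p under 0.05 in either direction. Gdf2, among the 11, passed the filter only through wild type arrays 2 and 3, and Acvrl1, among the 5, only through knockout arrays. Nrp1, a co-receptor of VEGF, came nearest, with 922, 1373 and 1201 in knockout, against 1349, 1448 and 1476 in wild type (limma unadjusted p = 0.0601), with overlap. Adm, or adrenomedullin, whose receptor includes Ramp2, read 211, 137 and 156 in knockout, against 128, 328 and 734 in wild type, with wild type array 3 the highest (limma unadjusted p = 0.0926). Of 14 tested Wnt pathway genes of the barrier, 7 lay on each side of 0, though Adgra2 on the upper side passed the filter only through knockout arrays. At an unadjusted p under 0.05, 1 was higher and 0 lower. This was Ctnnb1, beta-catenin, with 14400.5, 14492 and 14419 in knockout, against 13592, 12097 and 11867 in wild type, a log2 change of 0.21 (limma adjusted p = 0.594), and the genotypes did not overlap. Ndp, or norrin, a ligand of the same pathway, had 238, 249 and 212 in knockout, against 269.8, 338 and 304 in wild type, without overlap (limma unadjusted p = 0.0964). Of 11 tested junction partners, 7 lay above 0 and 4 below, and 0 had an unadjusted p under 0.05. Cldn1, among the 7, passed the filter only through knockout arrays 1 and 3.

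Further transport genes gave 12 of 19 above 0 and 7 below. At an unadjusted p under 0.05 there were 0 higher (4.31% of all tested probe sets) and 1 lower (3.98%). That gene was Slc19a1, the reduced folate carrier, with 651, 559 and 693 in knockout, against 752, 917 and 1052 in wild type, a log2 change of -0.51 (standard error 0.16, limma adjusted p = 0.591). Its genotypes did not overlap, as those of Slc2a1 and Abcc4 did not, where 6.62% of all tested probe sets lay wholly below in knockout. Slc38a5, a glutamine carrier of brain endothelium, had 397, 273 and 262 in knockout, against 379.7, 363 and 718 in wild type, with wild type array 3 the highest (limma unadjusted p = 0.0502). Slc40a1, or ferroportin, which exports iron, read 556, 634 and 530.3 in knockout, against 553, 484 and 403 in wild type, with overlap (limma unadjusted p = 0.135). Of 20 tested further endothelial genes, 7 lay above 0 and 13 below, with 0 at an unadjusted p under 0.05. Wild type array 3 was the highest in 11 of them, against 26.6% of all tested probe sets. Fli1, counted in the 11 and in the 13, passed the filter only through wild type arrays 2 and 3. Ets1, an ETS factor, had 330.2, 371 and 372 in knockout, against 381, 439 and 459 in wild type, without overlap (limma unadjusted p = 0.161).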

How the data were processed

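The authors deposited 1 linear intensity for each probe set and array, from MAS 5.0 (GCOS 1.4), according to the series' design text and per the submitters' processing notes. Each array's mean without the lowest and highest 2% of values was 500.0, so a common scaling was already present in the deposited intensities. It was kept, because division by array medians carries the differing dim signals into every gene. Values were turned to log2 without an offset, and 64 control probe sets were left out. The genotypes were compared in limma 3.58.1 under R 4.3.3 (lmFit, then eBayes with its trend option) over 23525 tested probe sets, 2-sided, with Benjamini-Hochberg adjustment over all of them. Labels gave each array's genotype, no batch is given in the sources used here, and 3 arrays per genotype limit the precision. Gene symbols are those of the platform's annotation, replaced by current RefSeq (GRCm38.p6) ones where the gene identifier matched. Probe sets with several symbols named no gene. The members, the 13 other gene lists and the alternatives were chosen with earlier results of these data known. Every member was named, and of each other list at most 4 genes with the smallest p. The 2 brightest genes of a marker list could also be named, and Hba-a1 and Chat were named outside that rule. So were Acvrl1 and Adgra2, because they passed the filter only through knockout arrays. Alternatives were another scaling, filter, offset or variance model, a replicate block, each array left out, the mean over a gene's probe sets, and the 1-factor test of the series' design text.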

Additional observations from a re-analysis of the deposited data

How the results depend on the processing

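No member had an adjusted p under 0.05 under any of the 17 alternatives. The 1 probe set called over the whole array became 0 without the trend in eBayes and in the methods' 1-factor test, 4 with the replicate block, 3 without the array of each genotype with the highest skeletal muscle signal (an alternative added after seeing the data), and 0 to 9 with single arrays left out. The 5 members at an unadjusted p under 0.05 became 2 with arrays divided by their medians (2 higher, 0 lower), 1 with the 75th percentile filter, which left 16 genes, 0 in the 1-factor test, 3 with each gene's probe sets averaged, and 0 to 10 with single arrays left out. With the replicate block the members were 6, the same 5 and Vwf. The higher and lower shares of all tested probe sets, 4.31% and 3.98%, became 6.67% and 2.10% with the 75th percentile filter. They were 3.98% and 3.17% in the 1-factor test, and 5.29% and 4.60% with the replicate block. With probe sets averaged, 3.89% of genes were higher and 4.55% lower. With single arrays left out, 1.70% to 6.81% of tested probe sets were higher and 2.40% to 7.42% lower. Same-numbered arrays correlated at -0.035, 0.074 and 0.11 in their deviations, and differently numbered ones at -0.12 to 0.080. The ranges overlapped, though the 0.11 of the arrays numbered 3 was the highest. The numbers were not taken as pairs in the main fit, and the replicate block is the alternative that does so. The median change of the members was -0.14 to -0.0081 with single arrays left out. It was 0.028 without knockout array 2 and wild type array 3, the arrays of each genotype with the highest skeletal muscle signal. Muscle and other traits of these 2 arrays cannot be told apart in that value. Division by array medians moved the median of all tested probe sets to 0.23, the members' changes under it were taken relative to that shift, and its p-values test the unshifted changes. The split at an unadjusted p under 0.05 over all tested probe sets was then 2805 higher and 265 lower, against 1013 and 937 with the deposited scaling. Of 493 single member values under alternatives, 442 were classed as the same, 34 lost an unadjusted call and 9 gained one. Another 8 were classed as moved, and 0 called values changed sign. Signal near the array median limits Cdh5, Icam2, Erg and Lef1.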

Other observations

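Cells that adjoin the vessels were read from lists apart from the members. Of 6 tested genes of meningeal and other fibroblasts, 4 were higher and 1 lower in knockout at an unadjusted p under 0.05, where 4.31% of all tested probe sets were higher and 3.98% lower, and none passed after adjustment over all of them in limma. Col1a2, a chain of type I collagen, read 2428, 2704 and 2179 on knockout arrays 1 to 3, against 1678, 1247 and 1869 on wild type arrays 1 to 3, and Col3a1, of type III collagen, read 1593, 1225 and 1162 in knockout, against 1049, 885 and 954 in wild type. Lum, a proteoglycan of collagen fibrils, lay the other way, with 339, 429 and 432 in knockout, against 564, 540.1 and 547 in wild type. The genotypes did not overlap in any of these 3 genes, where 7.85% of all tested probe sets had every knockout array above every wild type array and 6.62% below. Of 9 tested mural genes, 6 had a change above 0 and 3 below, with 1 higher and 0 lower at an unadjusted p under 0.05. This was Vtn, vitronectin of pericytes, with 3583, 3856 and 3147 in knockout, against 3332, 2641 and 2593 in wild type. Acta2, the smooth muscle actin of arterioles, had 1191, 1338 and 1355 in knockout, against 1153, 1834 and 2542 in wild type, highest on wild type array 3 as Vwf and Pecam1 were. Of 6 tested genes of astrocyte endfeet, 4 lay above 0 and 2 below, with 0 at an unadjusted p under 0.05, and Aqp4, the water channel of endfeet, had 8937, 9952 and 8565 in knockout, against 11329, 12627 and 8402 in wild type. Slc4a1, the anion exchanger of red blood cells, had 188, 256 and 238 in knockout, against 57, 71.5 and 80.8 in wild type, where all wild type values lay under the array median and no test is given, while Alas2, a heme enzyme of the same cells, had 524, 478 and 517 in knockout, against 409, 414 and 594 in wild type.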
